A study of Mus musculus with 2 samples.

Results

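The genes described here encode zinc finger proteins and lie side by side in the mouse genome. They were taken from the protein-coding genes of RefSeq on GRCm38.p6 (mm10) as those whose symbol is Zfp followed by a number, Zfp36 left out, and which lie within 100 kb of another such gene. The rule found 226 clustered genes in 52 clusters, out of 396 Zfp genes and 21887 protein-coding genes; the other 170 Zfp genes stand alone. The members were chosen by symbol and position, and the set was put forward with the share of its genes that have a gene-end peak in these lists already known, so these shares are a description and are not evidence that the set is special. At the edge of the rule, Zfp605 and Zfp932 on chromosome 5 lie 97.8 kb apart and were included, and Zfp715 and Zfp936 on chromosome 7 lie 104.4 kb apart and were not. Zfp932 had a wild-type fold of 5.38 and a KAT8-cKO fold of 2.99 and Zfp605 had no peak, while Zfp715 had 4.09 and 2.56 and Zfp936 had a KAT8-cKO peak of 2.41 alone.

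The mark measured was H4K16ac, acetylation of lysine 16 on histone H4, mapped by CUT&Tag, in which an antibody guides a transposase to cut and tag nearby DNA. Mouse macrophages were grown from bone marrow with M-CSF at 20 ng/ml and treated for 2 h with R848 at 100 ng/ml, an agonist of the receptor TLR7; untreated cells were not analysed here. One group was wild type and the other lacked KAT8 and was labelled KAT8-cKO, with no driver of the deletion, age or sex named; KAT8 is the main acetyltransferase for H4K16. Each genotype gave 1 library and 1 peak list, with 58229 wild-type and 55149 KAT8-cKO peaks, so no difference between genotypes could be set against variation between animals and no test was made. Depth per library is unknown, and a count of peaks past a threshold moves with depth and background. Of 10 macrophage marker genes, gene-end peaks were found at 8 in wild type and at 6 in the KAT8-cKO list, with none at Lyz2. The T cell markers had 3 and 1 of 5, the B cell markers 1 and 0 of 4, the neutrophil markers 1 and 1 of 5 and the fibroblast markers 3 and 1 of 5. Over all protein-coding genes, 46.8% and 43.3% had such a peak, and the marker counts were not tested against these shares. Of the wild-type macrophage peaks, q was under 0.05 at Cd68, Cd14 and Mertk, and not at Adgre1, Csf1r, Spi1, Fcgr1 and Cebpa. In the KAT8-cKO list q was under 0.05 at Spi1, Mertk and Itgam, and not at Cd68, Cd14 and Cebpa. Among the markers of the other cell types, q was under 0.05 at Cd3d and S100a8 in both lists and at Blk in wild type.

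Most proteins of this family carry arrays of C2H2 zinc fingers that read DNA sequence, and many carry a KRAB domain. The KRAB domain binds TRIM28, which brings the H3K9 methyltransferase SETDB1 and HP1 proteins, so that bound DNA is silenced; transposable elements are the best known targets. The genes arose largely by tandem duplication, which is why they lie in clusters and resemble one another. In many cells the bodies and 3′ ends of these genes carry the silencing mark H3K9me3, while H4K16ac is generally a mark of open, active chromatin.

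Promoter sequences from RefSeq (GRCm38.p6, 250 bases before to 50 after a listed start) were found for 195 of the 226 genes. The 3 genes with the highest wild-type folds are shown first because they have the strongest peaks, with each CpG in capitals. Zfp963 (chr8:69749913-69750212, minus strand) has 9 CpG sites, Zfp78 (chr7:6363058-6363357, plus strand) 13 and Zfp619 (chr7:39517516-39517815, plus strand) 21. The start listed for Zfp78 is 499 bp inside the annotated gene.
Zfp963: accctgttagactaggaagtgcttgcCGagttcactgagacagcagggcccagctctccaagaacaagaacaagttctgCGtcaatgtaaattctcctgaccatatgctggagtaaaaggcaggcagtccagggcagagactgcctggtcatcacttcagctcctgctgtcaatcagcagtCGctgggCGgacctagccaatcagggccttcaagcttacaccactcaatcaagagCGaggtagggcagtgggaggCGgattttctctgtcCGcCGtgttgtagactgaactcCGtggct
Zfp78: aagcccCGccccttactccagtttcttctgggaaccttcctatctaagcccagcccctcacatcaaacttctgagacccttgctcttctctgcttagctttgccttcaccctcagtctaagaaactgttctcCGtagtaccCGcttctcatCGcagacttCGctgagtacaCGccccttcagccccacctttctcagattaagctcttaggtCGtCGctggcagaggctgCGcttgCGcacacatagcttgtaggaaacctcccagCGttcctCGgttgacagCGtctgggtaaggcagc
Zfp619: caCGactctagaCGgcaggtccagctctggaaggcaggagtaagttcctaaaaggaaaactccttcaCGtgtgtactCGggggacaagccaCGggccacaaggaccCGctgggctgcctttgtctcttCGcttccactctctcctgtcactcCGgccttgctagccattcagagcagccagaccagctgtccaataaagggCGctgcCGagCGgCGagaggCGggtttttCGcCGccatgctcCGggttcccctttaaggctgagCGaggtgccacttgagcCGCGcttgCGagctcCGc

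The next promoters are shown because they share a stretch of letters that recurs within and between clusters. Capitals mark ACTACA followed, after any 2 bases, by TCCC, on either strand; this is the core of the motif bound by ZNF143 in human cells. Zfp738 (chr13:67683463-67683762, minus strand) has the highest fold of the largest cluster. Zfp759 (chr13:67127978-67128277, plus strand), Zfp458 (chr13:67268945-67269244, minus strand) and Zfp595 (chr13:67332511-67332810, minus strand) belong to the same cluster and had no peak at an annotated gene end. Zfp454 (chr11:50887461-50887760, minus strand) belongs to a cluster with no gene-end peak in either list.
Zfp738: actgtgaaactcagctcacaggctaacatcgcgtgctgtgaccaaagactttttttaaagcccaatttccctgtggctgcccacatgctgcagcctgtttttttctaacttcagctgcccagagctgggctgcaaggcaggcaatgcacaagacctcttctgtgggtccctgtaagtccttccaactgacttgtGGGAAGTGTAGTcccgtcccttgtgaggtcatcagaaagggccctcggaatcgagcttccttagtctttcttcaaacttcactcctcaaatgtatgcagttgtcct
Zfp759: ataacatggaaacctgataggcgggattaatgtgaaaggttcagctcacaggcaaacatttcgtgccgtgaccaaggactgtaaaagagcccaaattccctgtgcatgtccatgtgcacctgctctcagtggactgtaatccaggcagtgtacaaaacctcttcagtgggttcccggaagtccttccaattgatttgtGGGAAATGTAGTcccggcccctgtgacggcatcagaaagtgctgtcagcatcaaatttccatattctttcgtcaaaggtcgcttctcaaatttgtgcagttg
Zfp458: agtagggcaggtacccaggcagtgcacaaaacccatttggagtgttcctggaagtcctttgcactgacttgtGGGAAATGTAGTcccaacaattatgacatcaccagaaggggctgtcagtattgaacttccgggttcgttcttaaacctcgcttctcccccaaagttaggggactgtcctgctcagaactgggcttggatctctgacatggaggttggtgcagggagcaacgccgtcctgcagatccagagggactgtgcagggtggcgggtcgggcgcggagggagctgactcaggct
Zfp595: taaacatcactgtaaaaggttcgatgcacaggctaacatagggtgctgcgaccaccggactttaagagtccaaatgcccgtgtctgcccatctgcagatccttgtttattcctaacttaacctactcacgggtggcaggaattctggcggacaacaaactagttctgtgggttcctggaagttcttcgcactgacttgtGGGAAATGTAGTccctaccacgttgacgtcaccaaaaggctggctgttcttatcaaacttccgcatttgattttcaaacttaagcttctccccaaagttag
Zfp454: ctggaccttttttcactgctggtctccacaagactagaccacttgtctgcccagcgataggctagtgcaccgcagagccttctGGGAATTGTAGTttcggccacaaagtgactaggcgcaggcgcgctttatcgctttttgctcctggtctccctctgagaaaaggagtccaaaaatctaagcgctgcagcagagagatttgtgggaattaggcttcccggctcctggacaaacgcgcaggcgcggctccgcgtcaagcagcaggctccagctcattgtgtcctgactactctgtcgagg

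The last promoters are shown because near copies of them occur elsewhere in the family, with each CpG in capitals. Zfp758 (chr17:22361213-22361512, plus strand) and Zfp943 (chr17:21962309-21962608, plus strand) are identical in 292 of 293 aligned columns. Zfp955a (chr17:33255096-33255395, minus strand) is identical in all 300 bases to Zfp955b (chr17:33289294-33289593, plus strand).
Zfp758: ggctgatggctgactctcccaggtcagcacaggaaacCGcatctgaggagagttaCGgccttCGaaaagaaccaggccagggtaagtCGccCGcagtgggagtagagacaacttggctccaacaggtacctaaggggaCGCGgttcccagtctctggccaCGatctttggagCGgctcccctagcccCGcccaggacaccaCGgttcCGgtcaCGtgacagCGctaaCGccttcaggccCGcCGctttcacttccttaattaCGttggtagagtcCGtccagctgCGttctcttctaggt
Zfp943: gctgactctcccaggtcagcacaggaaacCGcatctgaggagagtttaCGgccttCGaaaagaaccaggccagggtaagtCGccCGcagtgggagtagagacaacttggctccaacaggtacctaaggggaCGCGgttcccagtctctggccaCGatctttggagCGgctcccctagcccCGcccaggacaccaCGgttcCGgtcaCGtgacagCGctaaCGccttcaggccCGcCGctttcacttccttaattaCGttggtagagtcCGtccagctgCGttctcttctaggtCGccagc
Zfp955a: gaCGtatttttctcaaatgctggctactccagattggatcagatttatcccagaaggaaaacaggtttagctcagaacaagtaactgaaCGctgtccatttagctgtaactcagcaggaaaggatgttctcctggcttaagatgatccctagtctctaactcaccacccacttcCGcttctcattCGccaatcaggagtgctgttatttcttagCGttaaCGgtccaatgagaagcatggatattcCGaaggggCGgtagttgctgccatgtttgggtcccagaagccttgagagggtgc

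Clustered Zfp genes carried H4K16ac peaks at their ends more often than protein-coding genes at large, in both genotypes, and most of the peaks were at the gene start. A gene was called marked if a peak touched the 1 kb around either annotated gene end. Of 226 clustered genes, 146 were marked in wild type, which is 64.6% (95% Wilson interval 58.2 to 70.5), against 46.8% of all protein-coding genes. In the KAT8-cKO list 142 were marked, 62.8% (56.4 to 68.9), against 43.3%. Both lists marked 123 genes, wild type alone 23 and the KAT8-cKO list alone 19, against 11.1% and 7.52% of all genes; 61 clustered genes were marked in neither. The intervals cover counting error over genes only, and genes of a cluster are not independent. Where the windows overlapped no other gene, 120 of 186 clustered genes (64.5%) had a wild-type mark and 122 (65.6%) a KAT8-cKO mark, against 37.4% and 34.8% of 14839 such genes in all.

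Weak and moderate peaks made up most of this excess. With peaks of q under 0.05, 121 clustered genes (53.5%) had a wild-type mark and 112 (49.6%) a KAT8-cKO mark, against 36.8% and 31.3% of all genes. At a −log10 q of 5 or more, 41 clustered genes (18.1%, 13.7 to 23.7) were marked in the wild-type list and 17 (7.52%, 4.75 to 11.7) in the KAT8-cKO list, against 12.4% and 5.99% of all genes. Of these, 12 were past that threshold in both lists, 29 in wild type alone and 5 in the KAT8-cKO list alone. Of the 41, 70.7% (55.5 to 82.4) fell short of it in the KAT8-cKO list, against 63.1% over all genes. Of the 17, 29.4% (13.3 to 53.1) fell short of it in wild type, against 23.4%. Both intervals contained the share over all genes. In the KAT8-cKO list the interval of the marked share of clustered genes at that threshold also contained the share of all genes.

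**Figure D1:**
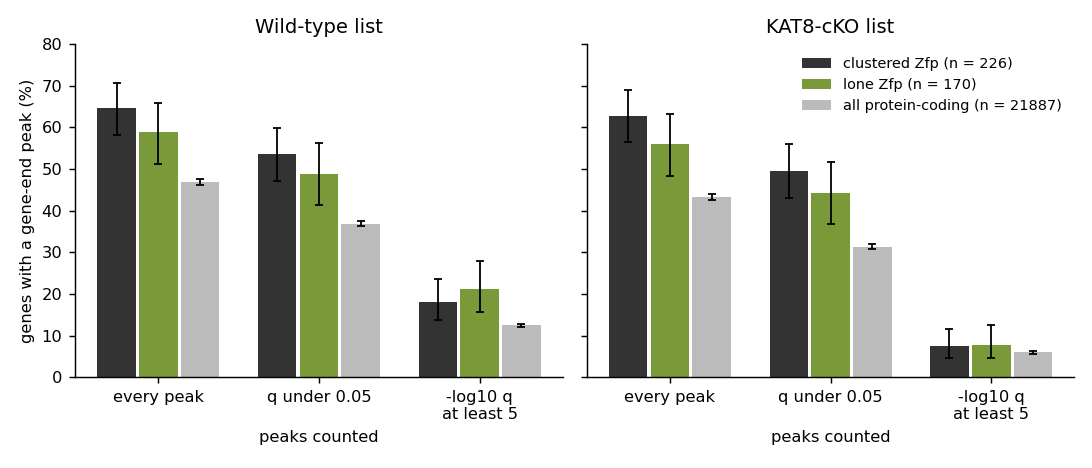
Share of genes (%) with a peak within 1 kb of a gene end in the wild-type (left) and KAT8-cKO (right) list, for 226 clustered Zfp genes, 170 lone Zfp genes and 21887 protein-coding genes, with 95% Wilson intervals. At every peak, clustered genes stand at 64.6% and 62.8% against 46.8% and 43.3% of all genes, and at a −log10 q of 5 or more at 18.1% and 7.52% against 12.4% and 5.99%.

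The share of marked genes was lowest in the smallest clusters. In the 22 clusters of 2 genes, 19 of 44 genes (43.2%, 29.7 to 57.8) were marked in wild type, and as many in the KAT8-cKO list. Over all genes the shares were 46.8% and 43.3%, which lie within that interval, so the pairs as a group showed no excess. With q under 0.05, 31.8% and 25% of the genes in pairs were marked, against 36.8% and 31.3% of all genes. In clusters of 3 to 4 genes the shares were 62.0% and 58.0% of 50 genes, in clusters of 5 to 9 genes 74.6% and 71.8% of 71 genes, and in clusters of 10 or more 70.5% and 70.5% of 61 genes. Every gene was marked in at least 1 list in 18 clusters, and no gene was marked in 7, of which 6 were pairs. The 47 genes of other names inside the cluster spans were marked in 48.9% (35.3 to 62.8) and 55.3% of cases, between the shares of all genes and of clustered genes in both lists.

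The largest cluster, on chromosome 13 (67038594 to 67827000), holds 23 genes, of which 15 were marked in both lists. They are Zfp712, Zfp455, Zfp457, Zfp953, Zfp456, Zfp429, Zfp58, Zfp87, Zfp748, Zfp729b, Zfp729a, Zfp738, Zfp85, Zfp493 and Zfp273. Zfp708 was marked in wild type only at its annotated ends, Zfp874a and Zfp65 in the KAT8-cKO list only, and Zfp759, Zfp458, Zfp595, Zfp459 and Zfp874b in neither. Folds over the peak caller's background ran from 2.69 at Zfp748 to 6.84 at Zfp738 in wild type, and from 2.56 to 5.13 at the same genes in the KAT8-cKO list. The gene ends of the annotation missed part of the signal. Zfp708 had peaks at a listed start in both lists, with folds of 4.41 and 4.06. Zfp759, Zfp458 and Zfp595, shown above, have their listed starts 6569, 9504 and 10394 bp inside the annotated gene, and peaks lay there in both lists. The wild-type folds at these starts were 2.93, 2.69 and 3.67 and the KAT8-cKO folds 3.42, 2.78 and 4.06.

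The cluster on chromosome 7 at 29768552 to 30169775 had all of its 15 genes marked in at least 1 list. Zfp84, Zfp30, Zfp420, Zfp383, Zfp74, Zfp568, Zfp14, Zfp82, Zfp566, Zfp260, Zfp382 and Zfp146 were marked in both, Zfp940 and Zfp27 in wild type only and Zfp790 in the KAT8-cKO list only. Zfp568, a repressor of the placental Igf2 transcript, had folds of 4.02 and 2.95. Zfp382 was the strongest in wild type (5.38, and 4.48 in the KAT8-cKO list). Zfp30, reported to control the neutrophil chemokine Cxcl1 in mouse airway, was the weakest in wild type with 2.44 and a −log10 q of 0.435, and the strongest in the KAT8-cKO list with 5.34 and 8.39. Its peaks overlapped only in part, with summits 105 and 445 bp downstream of the listed start.

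The other large clusters were marked less completely. Of 13 genes on chromosome 17 (21383707 to 21994366), Zfp677, Zfp54, Zfp51, Zfp53, Zfp948, Zfp983 and Zfp995 were marked in both lists. Zfp942 and Zfp943 had a wild-type peak only, Zfp52 a KAT8-cKO peak only, and Zfp760, Zfp229 and Zfp820 none. Folds there ran from 2.93 at Zfp995 to 5.37 at Zfp51 in wild type and from 2.35 at Zfp995 to 4.91 at Zfp983 in the KAT8-cKO list. Of 10 genes on chromosome 7 (24081877 to 24316698), Zfp180, Zfp61 and Zfp94 were marked in both lists, Zfp112 in wild type only, Zfp111 and Zfp108 in the KAT8-cKO list only, and Zfp235, Zfp114, Zfp109 and Zfp93 in neither. Peaks in that cluster were weak: the wild-type folds ran from 2.07 at Zfp61 to 3.02 at Zfp94, and the KAT8-cKO folds from 2.54 at Zfp61 to 3.65 at Zfp180. Of 9 genes on chromosome 4 (147124882 to 147849126), Zfp978, Zfp991 and Zfp933 were marked in both lists, Zfp988 and Zfp982 in wild type only, Zfp979 in the KAT8-cKO list only, and Zfp985, Zfp534 and Zfp984 in neither. The strongest there were Zfp991 (3.63) in wild type and Zfp933 (3.33) in the KAT8-cKO list, and the weakest was Zfp978 in both, at 2.09 and 2.55.

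Among the clusters of 5 to 9 genes, some were marked throughout and 1 not at all. All 5 genes were marked in both lists in the chromosome 8 cluster of Zfp868, Zfp964, Zfp869, Zfp963 and Zfp866 and in the chromosome 9 cluster of Zfp560, Zfp26, Zfp426, Zfp266 and Zfp846. None of the 5 genes Zfp354c, Zfp879, Zfp454, Zfp2 and Zfp354b on chromosome 11 (50811085 to 50931661) had a gene-end peak in either list, and the 4 with listed starts had none at those starts; the only peak inside these genes was a wild-type one in the body of Zfp454. A cluster of 7 genes on chromosome 7 (127233061 to 127449158) had a wild-type gene-end peak at every gene and a KAT8-cKO one at Zfp768, Zfp747 and Zfp764. The other genes, Zfp553, Zfp771, Zfp688 and Zfp689, had KAT8-cKO peaks inside the gene, and those of Zfp771 (2.72) and Zfp688 (3.06) lay at listed starts 1530 and 1207 bp from the annotated end. A cluster of 8 genes on chromosome 17 (32765496 to 33110707) had more KAT8-cKO marks, with 6 genes marked in the wild-type list and all 8 in the KAT8-cKO one, Zfp952 and Zfp563 being the additional ones.

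**Figure D2:**
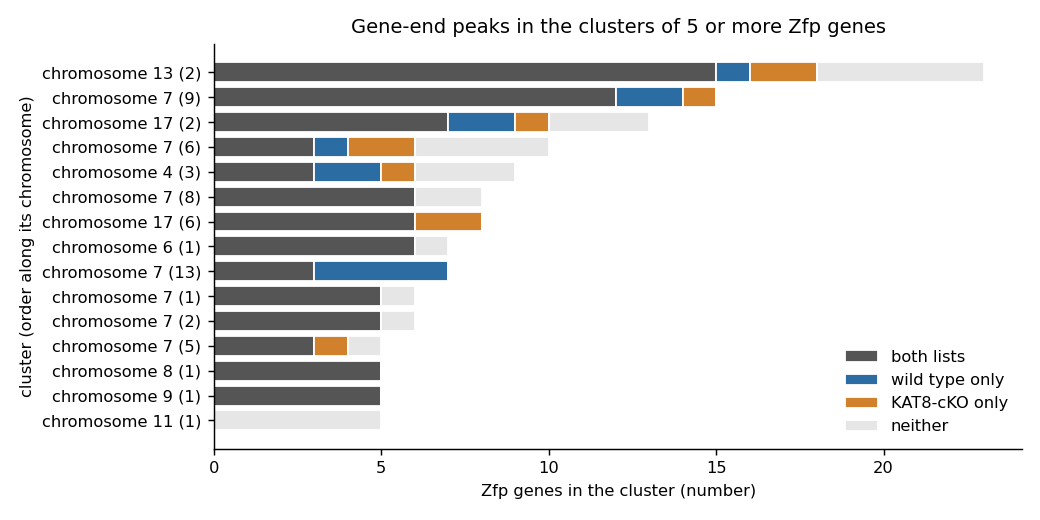
Number of Zfp genes marked in both lists, in 1 list or in neither, for each cluster of 5 or more genes; the number in parentheses is the order of the cluster along its chromosome. The largest cluster, on chromosome 13, has 15 of 23 genes marked in both lists, and the cluster on chromosome 11 has 5 of 5 marked in neither.

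The excess differed between chromosomes. Chromosome 7 holds 76 clustered genes in 14 clusters, of which 72.4% were marked in the wild-type list and 68.4% in the KAT8-cKO one, against 38.2% and 38.5% of its other genes. On chromosome 17 the share was 64.9% of 37 genes in each of the lists, against 49.1% and 46.5%. On chromosome 13 it was 66.7% and 70.4% of 27 genes, against 45.96% and 40.9%, and on chromosome 6 it was 72.7% and 81.8% of 11 genes, against 42.8% and 38.95%. On chromosome 8 all 9 genes were marked in the wild-type list and 8 in the KAT8-cKO one, against 54.9% and 52.55% of its other genes. Of the chromosomes with at least 9 clustered genes, 2, 4 and 11 did not show an excess. On chromosome 4 the shares were 50% and 35.7% of 14 genes, against 52.3% and 47.7% of its other genes, on chromosome 2 they were 45.5% and 36.4% of 11 genes, against 46.4% and 43.1%, and on chromosome 11 they were 22.2% and 22.2% of 9 genes, against 55.4% and 49.1%. None of the 4 X-linked clustered genes, Zfp182, Zfp300, Zfp275 and Zfp92, was marked, on a chromosome where 18.7% and 12.02% of other genes were.

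The peaks at clustered genes were of ordinary height for gene ends. The fold of the strongest peak per marked gene ran from 2.07 to 7.74 in wild type, with a median of 3.65 (quartiles 3.05 and 4.40), beside a median of 3.42 over all marked genes. In the KAT8-cKO list it ran from 1.97 to 6.47, with a median of 3.23 (quartiles 2.83 and 3.84), beside 3.13. The folds and q-values come from the authors' peak calling and serve to rank peaks inside one list. By that ranking the median strongest peak stood at percentile 85.2 of the wild-type list and 80.03 of the KAT8-cKO list, and at 80.2 and 74.0 for all marked genes. The median widths were 526.5 and 497 bp, against 498 and 421 bp for all marked genes.

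The highest wild-type folds belonged to Zfp963 (chromosome 8, 69741639 to 69749962) with 7.74, Zfp78 (chromosome 7, 6362809 to 6382606) with 7.71 and Zfp619 (chromosome 7, 39517766 to 39540415) with 7.26. Their −log10 q values were 18.9, 30.3 and 16.8. In the KAT8-cKO list the same genes had folds of 3.92, 6.47 and 5.66 and −log10 q values of 4.31, 17.5 and 11.3. Zfp78 and Zfp619 thus stood near the top of both lists, Zfp78 at percentile 99.6 and 99.5, while Zfp963 stood at 99.6 and 93.9.

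The next in wild type were Zfp738 (6.84, and 5.13 in the KAT8-cKO list), Zfp868 (6.55 and 3.42), Zfp606 (5.83 and 3.99), Zfp174 (5.70 and 3.72), Zfp746 (5.45 and 3.94), Zfp382 (5.38 and 4.48) and Zfp58 (5.38 and 4.06). Zfp746 is the repressor of Ppargc1a known as PARIS. All of these stood at a gene that was marked in both lists. Zfp868 and Zfp963 belong to the same cluster on chromosome 8.

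In the KAT8-cKO list Zfp78, Zfp619, Zfp30 and Zfp738 led, followed by Zfp935 (5.13, and 5.13 in wild type), Zfp729a (4.92 and 3.80), Zfp983 (4.91 and 5.20), Zfp110 (4.81 and 4.98), Zfp74 (4.75 and 5.02) and Zfp382. Zfp110 encodes NRIF, a partner of the neurotrophin receptor p75. Zfp809, which silences murine leukaemia proviruses in mouse stem cells, had folds of 4.65 and 3.91. The leading genes of the lists overlapped in Zfp78, Zfp619, Zfp738 and Zfp382.

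**Figure D3:**
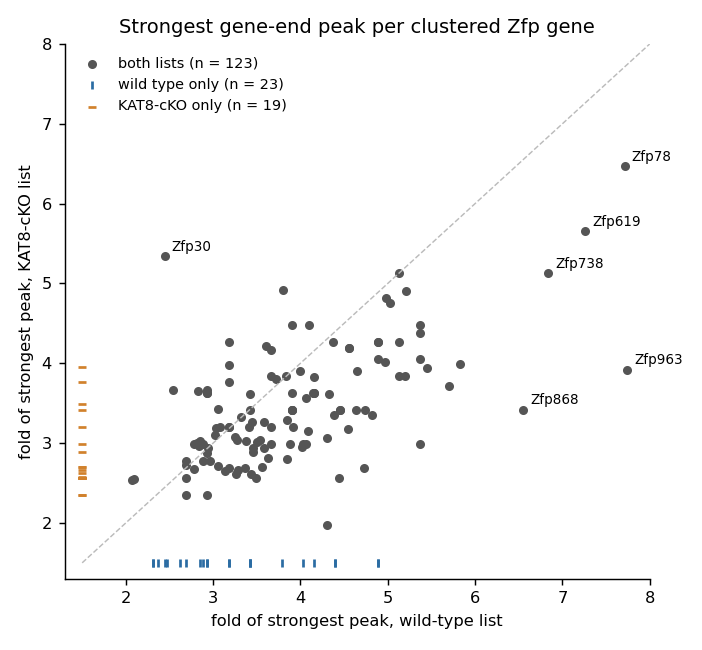
Fold of the strongest gene-end peak of each clustered Zfp gene in the wild-type (x) and KAT8-cKO (y) list, for 123 genes marked in both; ticks along the axes are 23 genes marked in wild type only and 19 in the KAT8-cKO list only. Zfp78 has 7.71 and 6.47, Zfp963 has 7.74 and 3.92 and Zfp30 has 2.44 and 5.34; the dashed line is equality, and folds of the lists are not on a shared scale.

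Most marked clustered genes had a peak in both lists, and the same peaks recurred. Of 146 genes with a wild-type peak, 15.8% (10.7 to 22.5) lacked a KAT8-cKO one, against 23.6% (22.8 to 24.5) of all marked genes. In the opposite direction 13.4% (8.74 to 19.95) lacked a wild-type peak, against 17.4%. The strongest peak was overlapped by a peak of the other list at 120 of 146 genes (82.2%) and at 117 of 142 (82.4%), against 67.8% and 73.2% of all marked genes. Counted once each, 166 wild-type and 164 KAT8-cKO peaks lay at clustered gene ends, and 77.7% and 76.2% of them were overlapped, against 60.75% and 67.8% of all gene-end peaks. With all marked genes divided into 4 classes by wild-type fold, from weakest to strongest, 9 of 25, 7 of 36, 3 of 42 and 4 of 43 clustered genes lacked a KAT8-cKO peak. The corresponding shares over all genes were 45.7%, 32.0%, 12.9% and 3.47%. The clustered share was lower in the weaker classes and higher in the strongest, 9.30% (3.68 to 21.6). The 4 genes of the strongest class are Zfp758, Zfp944, Zfp942 and Zfp943, which rest on 2 shared peaks described further on, so the interval counts each peak more than once.

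Genes marked in a single list had weaker peaks, here as over all genes. The 23 genes marked in wild type only had a median wild-type fold of 3.18, against 3.72 for those marked in both, and 15 of the 23 reached q under 0.05. The 19 genes marked in the KAT8-cKO list only had a median fold of 2.66, against 3.36, and 9 of the 19 reached q under 0.05. Over all genes the medians were 2.93 against 3.665 in wild type and 2.755 against 3.21 in the KAT8-cKO list. Among all genes, 1317 of 2422 marked in wild type only and 699 of 1646 marked in the KAT8-cKO list only reached q under 0.05. The strongest wild-type-only genes after those on chromosome 17 described next were Zfp773 (4.15), Zfp688 (4.03), Zfp27 (3.79) and Zfp442, Zfp551 and Zfp709, each with 3.42. At Zfp688 a KAT8-cKO peak overlapped the wild-type one outside the gene-end window. The strongest KAT8-cKO-only genes were Zfp955a (3.96), Zfp128 (3.77), Zfp563 (3.48), Zfp9 (3.42), Zfp660 (3.20), Zfp874a (2.99), Zfp7 (2.89), Zfp646 and Zfp668 at 1 shared peak (2.70), and Zfp790 (2.66). Zfp790 also had peaks at a listed start 4635 bp from the annotated end, with a wild-type fold of 4.04 and a KAT8-cKO fold of 2.91. Of 22 wild-type-only genes with a listed start, 4 (Zfp13, Zfp688, Zfp708 and Zfp771) had a KAT8-cKO peak at one, and of 16 KAT8-cKO-only genes, Zfp790 alone had a wild-type peak at one.

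The strongest clustered genes marked in wild type only were duplicates. Zfp758 and Zfp944 face away from each other on chromosome 17 and share 1 wild-type peak (22361225 to 22361610, fold 4.89, −log10 q 6.05). Zfp942 and Zfp943, in another cluster of that chromosome, are likewise divergent and share 1 peak (21962263 to 21962783, fold 4.40, −log10 q 4.64). Neither place had a KAT8-cKO peak. The promoter of Zfp758 is 99.66% identical to that of Zfp943, both shown above, and that of Zfp942 is 99.64% identical to that of Zfp944. These 4 genes therefore rest on 2 peaks in near-copies of 1 sequence. Zfp955a, the strongest gene marked in the KAT8-cKO list only, has a promoter identical to that of Zfp955b, which had a wild-type fold of 3.18 and a KAT8-cKO fold of 3.77. How reads that fit more than 1 place were handled is not given in the sources used here, and its part in these calls was not tested.

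Over the family, 35 of 195 promoters matched another clustered promoter at 80% identity or more. Of these 35 genes, 22 (62.9%, 46.3 to 76.8) were marked in the wild-type list and 17 (48.6%, 33.0 to 64.4) in the KAT8-cKO one. For the other 160 genes the counts were 106 (66.25%) and 105 (65.6%). With every peak counted, the small difference between the lists thus lay mostly among the genes with near-copies, and the intervals of the groups overlapped. Zfp758, Zfp944, Zfp942 and Zfp943 are among these and share their peaks in pairs. At a −log10 q of 5 or more, 41 and 17 clustered genes were marked, and near-copies were not counted apart there.

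Peaks at clustered genes mostly sat at the gene start. Of the 128 genes with a known strand that were marked in wild type, 123 had their strongest peak at the start and 5 at the 3′ end; in the KAT8-cKO list the counts were 118 and 4 of 122. Of all genes with a known strand, 88.3% and 87.0% of those marked had a peak touching the start, against 96.1% and 96.7% here. Measured from the nearest listed start, the median summit lay 64 bp downstream in wild type (quartiles −94.5 and 147.5) and 82.5 bp in the KAT8-cKO list (−55.25 and 184). For all genes it lay at −15 and 18 bp.

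**Figure D4:**
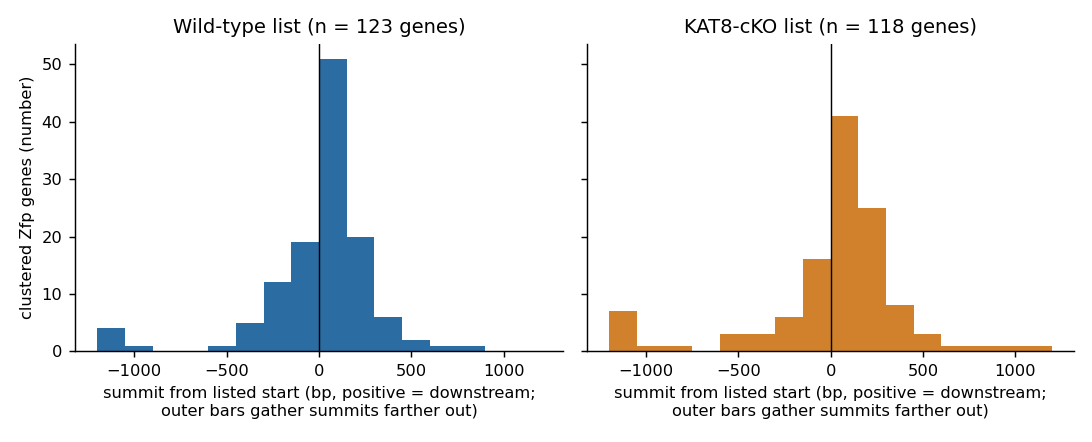
Distance of the summit of the strongest peak from the nearest listed start (bp, positive downstream), for clustered Zfp genes with a known strand whose peak touches the 1 kb around the annotated start, 123 in wild type (left) and 118 in the KAT8-cKO list (right). Summits farther out than the axis are gathered in the outer bars; the medians are 64 and 82.5 bp downstream.

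The annotated ends left out some starts. Of the 195 genes with a listed start, 29 had the nearest one more than 1 kb from the annotated gene end. Of 51 genes with a listed start that were unmarked at gene ends, 12 had a peak at a listed start. Zfp759, Zfp458, Zfp595, Zfp874b, Zfp119b, Zfp984, Zfp583 and Zfp59 had one in both lists, Zfp445, Zfp777 and Zfp428 in wild type and Zfp981 in the KAT8-cKO list. Scored at listed starts, 68.7% of clustered genes (61.9 to 74.8) were marked in the wild-type list and 66.7% (59.8 to 72.9) in the KAT8-cKO one, against 46.7% and 42.7% of all genes with a listed start.

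Clustered promoters of low CpG content were marked far more often than other promoters of low CpG content. The ratio of observed to expected CpG had a median of 0.575 at clustered promoters, 0.687 at lone Zfp promoters and 0.577 over all promoters. Below a ratio of 0.6, 58 of 100 clustered promoters (58.0%, 48.2 to 67.2) belonged to genes marked in the wild-type list and 59 (59.0%, 49.2 to 68.1) in the KAT8-cKO one. Over all 9026 promoters of that class the shares were 25.6% and 23.5%. At a ratio of 0.6 or more, 73.7% (64.0 to 81.5) of 95 clustered promoters were marked in the wild-type list and 66.3% (56.3 to 75.02) in the KAT8-cKO one, against 71.1% and 65.8% of all such promoters, which lie within those intervals. The difference from other genes therefore stood in the class of low CpG content, where CpG content was not matched further. The lower quartile of the ratio was 0.404 over clustered promoters and 0.220 over all promoters. Part of the contrast below 0.6 may thus compare unlike CpG contents, which was not tested. The lone Zfp genes showed the same order, with 51.8% and 48.2% of 56 promoters below 0.6 and 69.6% and 67.1% of 79 above it.

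**Figure D5:**
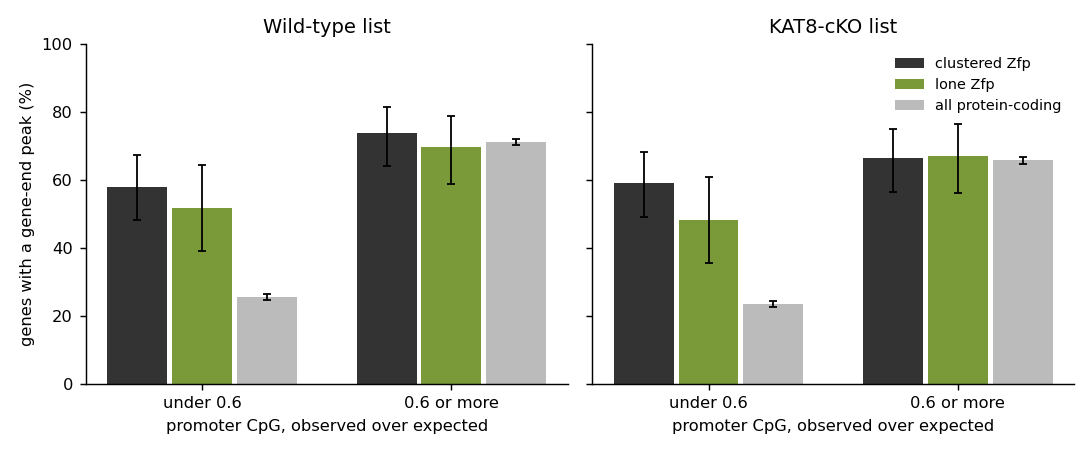
Share of genes (%) with a gene-end peak in the wild-type (left) and KAT8-cKO (right) list by the ratio of observed to expected CpG in the promoter, for clustered Zfp, lone Zfp and all protein-coding genes, with 95% Wilson intervals. Below 0.6 the clustered genes stand at 58.0% and 59.0% against 25.6% and 23.5% of all genes; at 0.6 or more they stand at 73.7% and 66.3% against 71.1% and 65.8%.

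One stretch of letters was many times more frequent in clustered promoters than in promoters at large. The ZNF143 letters, ACTACA and TCCC with any 2 bases between them, on either strand, occurred in 50 of 195 clustered promoters (25.6%), in 5 of 135 lone Zfp promoters (3.70%) and in 2.78% of all 17492 promoters. Among the 160 clustered promoters without a near-copy it was 42 (26.25%). The matches fell in 13 clusters: 18 of 20 promoters of the largest cluster on chromosome 13, 10 of 14 of the fully marked chromosome 7 cluster, 6 of 9 of the weakly marked chromosome 7 cluster and 4 of 4 of the unmarked chromosome 11 cluster. Their median position was 50 bases before the listed start. Of the 50 genes, 30 (60.0%) were marked at gene ends in wild type and 35 (70.0%) in the KAT8-cKO list, and 34 (68%) and 39 (78%) at listed starts, beside 68.7% and 66.7% of clustered genes. The letters were in 2 of 22 promoters of wild-type-only genes (9.09%) and 7 of 16 of KAT8-cKO-only genes (43.75%). They were in 26.4% of promoters of clustered genes marked in both lists and 25.5% of those marked in neither. Of the 7 KAT8-cKO-only genes with the letters, the gene-end peak had q under 0.05 at Zfp128 and Zfp874a alone. At Zfp65, Zfp108, Zfp111, Zfp692 and Zfp790 its −log10 q was 0.576 to 0.935. Zfp790 also had a wild-type peak at a listed start. Over all promoters the order of the single-list classes was the reverse, with 3.115% for wild-type-only and 2.25% for KAT8-cKO-only genes. Over all promoters with the letters, 79.2% and 72.8% were marked. The letters were searched for after they were seen in the sequences above, and a match is not a bound site. Promoters of one cluster can share descent and are not independent.

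Other short motifs, searched on both strands, differed less. CCAAT was found in 53.3% of clustered promoters, 44.4% of lone Zfp promoters and 39.2% of all promoters, and the ETS letters CCGGAAG in 21.0%, 23.0% and 11.9%. The SP1 letters GGGCGG were found in 37.95%, 53.3% and 46.3%, TATAAA in 5.13%, 8.15% and 13.3%, the NRF1 letters GCGCATG in 8.72%, 3.70% and 4.88%, the YY1 letters AAGATGG in 6.67%, 10.4% and 6.35%, and the E-box CACGTG in 8.21%, 5.93% and 7.91%.

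Lone Zfp genes were also marked more often than genes at large, and the intervals of the lone and clustered shares overlapped. Of 170 lone genes, 100 (58.8%, 51.3 to 66.0) were marked in wild type, 95 (55.9%) in the KAT8-cKO list and 81 in both. Of the 100, 19.0% (12.5 to 27.8) lacked a KAT8-cKO peak, between the 15.8% of clustered genes and the 23.6% of all genes. At a −log10 q of 5 or more, 21.2% of lone genes were marked in the wild-type list and 7.65% in the KAT8-cKO one. Their median folds were 3.48 and 3.20. The leading lone genes in wild type were Zfp706 (6.72, and 5.13 in the KAT8-cKO list), Zfp639 (6.56 and 5.13), Zfp62 (6.11 and 4.06), Zfp318 (6.01 and 3.63) and Zfp317 (5.63 and 5.42). In the KAT8-cKO list Zfp788 led with 5.81, and Zfp157 followed Zfp639 with 4.91. The lone set includes Zfp36l1, Zfp36l2 and Zfp36l3, which encode RNA-binding proteins of another zinc finger type. The related Zscan and Zkscan genes were marked in 15 (55.6%, 37.3 to 72.4) and 16 (59.3%, 40.7 to 75.5) of 27 cases, 15 of them in both lists. Over all genes the shares were 46.8% and 43.3%, which lie within those intervals, and 35.8% in both lists, which lies below.

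Inside the genes, away from their ends, peaks were spread unevenly over the clusters. Bodies of clustered genes, more than 1 kb from an end, held 43.1 peaks per Mb in wild type and 45.8 in the KAT8-cKO list, against 26.8 and 25.4 over all genes and 28.5 and 28.4 over lone Zfp genes. Clusters on chromosome 4 held 82.8 and 96.8 per Mb, and without them the density was 30.8 and 30.0. Most of the chromosome 4 peaks lay in 2 genes, Zfp978 with 40 and 39 peaks over 267.1 kb and Zfp993 with 29 and 36 over 478.6 kb. Body peaks of clustered genes were weak beside their gene-end peaks, with a median fold of 2.90 and 2.78 against 3.42 and 3.17. They were not weaker than body peaks over all genes, with medians of 2.78 and 2.75. Of the clustered body peaks 54.1% and 59.1% had q under 0.05, against 40.95% and 41.4% over all genes. Where the strand was known, 14.8% of wild-type and 18.9% of KAT8-cKO body peaks of clustered genes lay in the last part of the gene when it was divided into 3 equal parts, against 35.0% and 35.9% over all genes and 32.7% and 30.6% over lone Zfp genes. The clustered shares rest on 149 and 164 peaks. Zfp993, with 29 and 36 body peaks, has a known strand, and these shares were not computed without it or without chromosome 4.

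The genes of the machinery that the KRAB proteins work through were nearly all marked. Of 19 co-repressor genes found, 16 had a wild-type peak, beside 46.8% of all genes, and 18 a KAT8-cKO peak, beside 43.3%. The same 16 had a peak in both lists, beside 35.8%. The list was not matched for CpG content, and 71.1% and 65.8% of all promoters with a CpG ratio of 0.6 or more were marked. Wild-type −log10 q ran from 1.01 at Uhrf1 to 22.5 at Mphosph8, and q was not under 0.05 at Uhrf1 and Chd3. KAT8-cKO −log10 q ran from 0.663 at Pphln1 to 10.8 at Hdac2. In that list q was not under 0.05 at Pphln1, Smarcad1, Setdb1, Uhrf1 and Chd3. Trim28, the KRAB partner, had folds of 3.18 and 3.595, and Setdb1, its H3K9 methyltransferase, 3.66 and 2.78. The HP1 genes Cbx1, Cbx3 and Cbx5 had wild-type folds of 4.15, 4.38 and 3.57 and KAT8-cKO folds of 3.20, 4.06 and 3.39. Mphosph8, a subunit of the HUSH silencing complex, had the highest wild-type fold of the list with 8.20, and 4.51 in the KAT8-cKO list. Its partner Tasor was marked in neither. Chd4, a remodeller of the NuRD complex, and Dnmt1, the maintenance DNA methyltransferase, had KAT8-cKO peaks only, with folds of 2.73 and 2.87.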

How the data were processed

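H4K16ac CUT&Tag peaks were taken from 1 deposited list per genotype, grouped by the genotype in the labels. Per the submitters' processing notes, the work used build mm10, Bowtie 0.12.8, MACS2 2.2.7.1 and DiffBind in roles that are not stated. Peak calling settings, any control library and the handling of reads with several placements are not given in the sources used. Each deposited list gives a score, a fold (a ratio over the caller's background), a p-value and a q-value as −log10, and a summit. All are the authors' values. In the deposited lists no −log10 p was below 2.01, and 46.9% and 47.0% of peaks had q under 0.05.

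Genes were placed by a RefSeq table (GRCm38.p6) without strand, and promoters from a RefSeq table holding 17492 genes, using the start nearest the annotated gene start. Genes with bodies up to 100 kb apart were joined into clusters, and a peak covering at least 1 bp within 1 kb of a gene end marked the gene. Promoter identity came from global alignment over at least 200 columns. Python 3.11.15, pandas 2.3.3, numpy 2.4.6 and Biopython 1.88 were used, and the code was tested on simulated data. With 1 library per genotype no test was run; shares carry 95% Wilson intervals that cover counting error over genes only. The members, the gene lists and the motifs were chosen with earlier results of these data known. Named genes were the 10 clustered genes with the highest fold in each list and among those marked in a single list, the members of the 5 largest clusters, and the 5 leading lone genes per list. Clusters, genes with a known role and promoters named beyond these were chosen after their values were seen. A planned description of the encoded proteins was not run, because no protein sequences were used here.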

Additional observations from a re-analysis of the deposited data

How the results depend on the processing

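Of 172 values recomputed under 16 settings, 131 stayed within the 95% interval of the value reported and 41 moved out of it. The values below give wild type first and the KAT8-cKO list second unless stated; loss means genes marked in wild type that lacked a KAT8-cKO peak, and gain the opposite. With 500 bp around gene ends, 55.75% of clustered genes were marked in the KAT8-cKO list. With 3 kb, 74.3% and 78.3% of clustered genes were marked, 67.7% in both with a loss of 8.93%, and 69.4% and 67.65% of lone genes. Over gene bodies plus 1 kb at each end, 78.8% and 80.97% of clustered genes were marked, 71.2% in both with a loss of 9.55%, and 77.1% and 75.3% of lone genes with a loss of 11.45%. With q under 0.05, the shares were 53.5% and 49.6% for clustered genes, 41.6% for both lists, and 48.8% and 44.1% for lone genes. At a −log10 q of 5 or more, they were 18.1% and 7.52% for clustered genes with 5.31% in both, a loss of 70.7% and a gain of 29.4%, and 21.2% and 7.65% for lone genes with a loss of 75% and a gain of 30.8%; the median folds were 4.89 and 4.75. With only the 20000 strongest peaks per list, 47.8% and 44.7% of clustered genes were marked, 34.5% in both, with a loss of 27.8% and a gain of 22.8%, and 43.5% and 35.9% of lone genes with a loss of 33.8%; the median folds were 4.02 and 3.61. In windows free of other genes the loss among clustered genes was 10%, against 22.5% among lone Zfp genes and 26.4% over all genes with such windows. Over all protein-coding genes the loss at a −log10 q of 5 or more was 63.1% and the gain 23.4%. Settings with stronger peaks or wider windows count fewer or more peaks by construction; the cause of the change in loss was not tested. Leaving out Zfp36l1, Zfp36l2 and Zfp36l3 or the 35 clustered genes with near-copies was chosen after seeing the data. No paired analysis was possible because each genotype has 1 library and no test was made. Depth is unknown and limits every count of weak peaks.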
